A study of Mus musculus with 18 samples.

Results

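The urea cycle and ammonia genes of periportal liver were examined as a set of 10, namely Cps1, Otc, Ass1, Asl, Arg1, Slc25a15, Nags, Gls2, Hal and Cyp2f2, which were taken by name from the 16245 genes of the liver count table. The livers came from wild-type C57BL/6 mice, all males on the C57BL/6J background according to the methods, that were moved to a NASH diet and to housing at about 29 °C at 8 weeks of age. NASH diet stands for a diet rich in fat and fructose on which mice develop non-alcoholic steatohepatitis. Of the 18 mice, 6 received vehicle, 6 received recombinant GDF15 subcutaneously each morning, and 6 (pair-fed) were given daily what the GDF15 mice had eaten on the preceding day, so that the comparison of GDF15 with pair-fed mice asks what remains at matched food intake. The labels list several GDF15 doses without giving the dose of each mouse, and all 3 groups shared the diet, the temperature and single housing, with no lean or chow-fed group among them. Libraries held 16508864 to 35301853 counts.

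The urea cycle converts ammonia, which is toxic, into urea in hepatocytes around the portal vein. Ammonia released from glutamine and other amino acids is fixed with bicarbonate to carbamoyl phosphate in the mitochondria, joined to ornithine to give citrulline, and carried through argininosuccinate and arginine to urea in the cytosol. Ammonia that escapes these cells is taken up by pericentral hepatocytes around the central vein, which fix it into glutamine. The enzymes of the cycle are known to rise with protein catabolism, glucagon and glucocorticoids.

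GDF15 livers held more RNA of 9 of the 10 genes than vehicle livers and than pair-fed livers. Cps1, which catalyses the entry step of the cycle, and Hal, which starts histidine breakdown, were about doubled, the other 7 rose by 1.20-fold to 1.68-fold, and Cyp2f2, a cytochrome P450 used as a marker of periportal hepatocytes, did not pass the test. None of the 10 was called between pair-fed and vehicle livers. A gene was called when its adjusted p from DESeq2 (Wald test, all 18 livers in the fit, Benjamini-Hochberg over all genes) was under 0.05. By that rule 9 of 10 members were higher in GDF15 against vehicle, where 14.3% of all 16242 genes tested were called higher, and 9 of 10 against pair-fed, where 11.8% were. The 10 were chosen with earlier results of these data known, so the shares are given as description and not as a test of the set. The same 9 members were called higher in both comparisons, which share the GDF15 livers, beside 9.88% of all genes. Among the 3038 genes whose mean normalized count reached 1000, which include all 10 members, the called-higher shares were 34.5% against vehicle and 28.5% against pair-fed. The median log2 fold change of the 10 was 0.54 against vehicle and 0.59 against pair-fed, beside -0.00 and -0.01 over all genes tested. With an absolute log2 fold change above 1 required as well, Cps1 and Hal remained against vehicle, where 0.813% of all genes were called higher, and Cps1 remained against pair-fed, where 0.554% were.

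**Figure D1:**
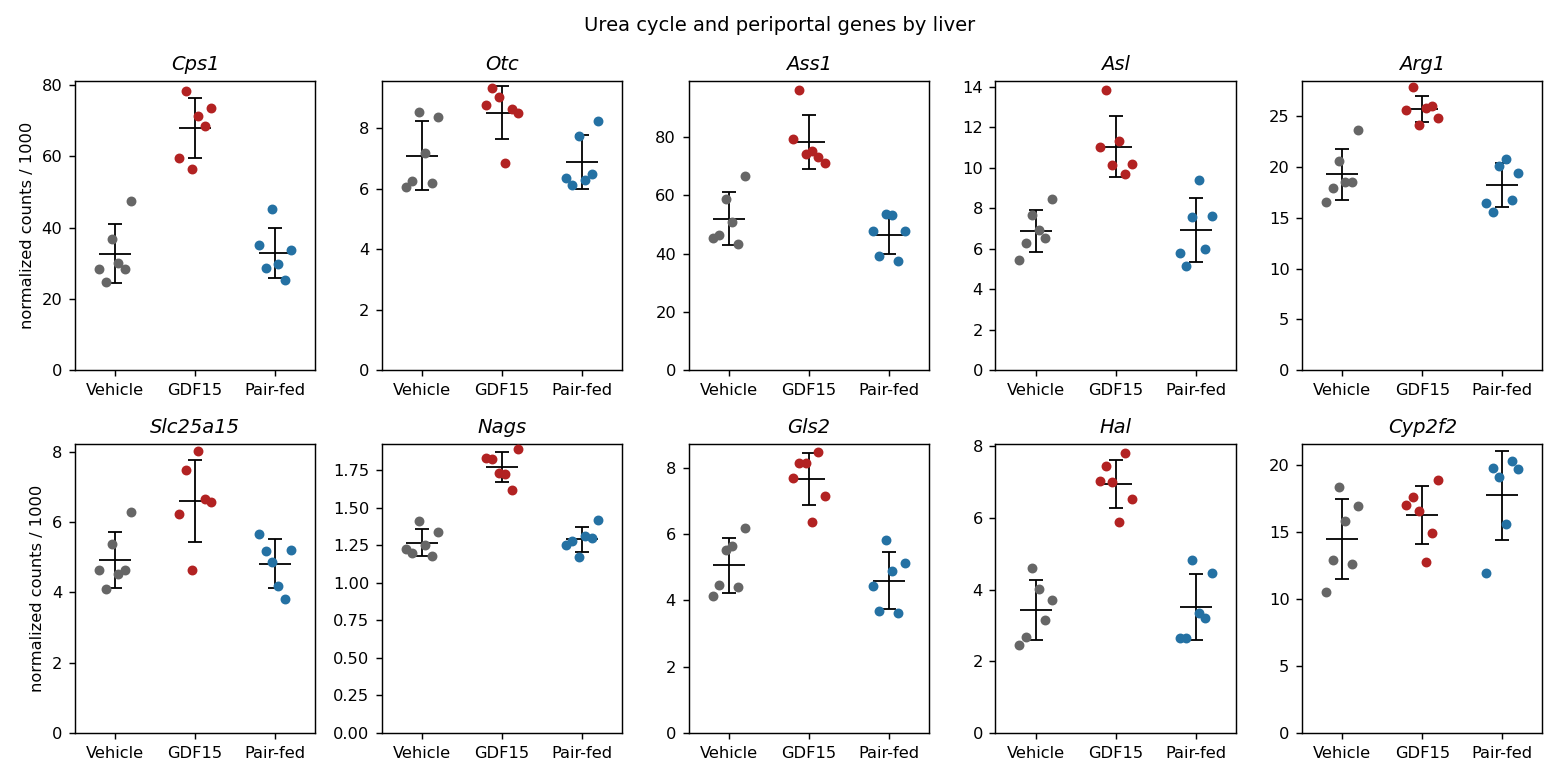
Normalized counts divided by 1000 (vertical axis from 0) of the 10 genes in each of 18 livers, by group, with the mean as a horizontal bar and the SD as whiskers (n = 6 per group). The GDF15 livers of 7 genes sit above all 12 others, while those of Otc, Slc25a15 and Cyp2f2 overlap them.

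All 6 GDF15 livers lay above all 12 other livers for 7 of the 10 genes (Cps1, Ass1, Asl, Arg1, Nags, Gls2 and Hal), a separation that 2.94% of all genes tested showed. The same 7 were free of overlap with vehicle alone, beside 5.2% of all genes, and with pair-fed alone, beside 4.31%. The levels below are normalized counts, that is counts divided by DESeq2's median-of-ratios size factors, which allow livers but not genes to be compared. In bulk tissue, fewer cells of a type and less RNA per cell cannot be told apart.

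The start sites of 6 of the 10 genes were found in RefSeq (build GRCm38.p6), with windows of 250 bases before the start. These are shown for 4 of them, to set a gene that doubled (Hal), a gene that rose by a smaller factor (Ass1), the cycle gene that rose least (Otc) and the gene that did not pass (Cyp2f2) side by side. Capitals mark matches, on either strand, to 7 motifs that were searched. These were the site of the C/EBP factors, spelled TTGCNNAA, the GC box bound by Sp1-type factors, spelled GGGCGG, and the box at which the basal machinery assembles, spelled TATAAA. The others were the E-box bound by basic helix-loop-helix factors, spelled CACGTG, the cAMP response element, spelled TGACGTCA, the direct repeat bound by HNF4A, and the core of the glucocorticoid response element, spelled TGTTCT. Matches in the windows shown do not overlap each other. All 4 windows are on the plus strand and are written 5′ to 3′, at chr10:93488518-93488767 for Hal, chr2:31470020-31470269 for Ass1, chrX:10252055-10252304 for Otc and chr7:27119705-27119954 for Cyp2f2.
Hal: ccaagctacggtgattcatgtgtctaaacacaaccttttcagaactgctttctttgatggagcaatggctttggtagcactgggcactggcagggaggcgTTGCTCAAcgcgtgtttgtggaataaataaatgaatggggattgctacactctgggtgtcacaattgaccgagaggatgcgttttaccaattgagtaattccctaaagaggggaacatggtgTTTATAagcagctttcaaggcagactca
Ass1: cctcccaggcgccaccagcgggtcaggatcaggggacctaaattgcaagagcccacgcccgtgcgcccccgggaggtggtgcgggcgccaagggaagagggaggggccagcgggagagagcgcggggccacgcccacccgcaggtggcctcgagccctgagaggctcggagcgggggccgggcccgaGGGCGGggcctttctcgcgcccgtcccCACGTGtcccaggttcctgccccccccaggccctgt
Otc: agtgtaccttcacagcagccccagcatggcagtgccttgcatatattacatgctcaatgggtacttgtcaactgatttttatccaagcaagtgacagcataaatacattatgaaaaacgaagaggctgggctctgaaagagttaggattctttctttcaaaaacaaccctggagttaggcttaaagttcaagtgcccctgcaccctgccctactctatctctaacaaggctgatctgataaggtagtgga
Cyp2f2: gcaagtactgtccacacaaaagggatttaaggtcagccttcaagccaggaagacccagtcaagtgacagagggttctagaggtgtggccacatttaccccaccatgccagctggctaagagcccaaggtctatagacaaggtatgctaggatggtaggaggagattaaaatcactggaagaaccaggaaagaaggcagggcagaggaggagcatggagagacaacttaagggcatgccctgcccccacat

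The Hal window held a C/EBP match (TTGCTCAA) 150 bases before the start and a TATA match, read on the other strand (TTTATA), 28 bases before it. C/EBP matches occurred in 9.56% and TATA matches in 12.4% of all 32851 promoter windows. The Ass1 window, with a GC content of 75.6% and 23 CpG dinucleotides, held a GC box 63 bases and an E-box 36 bases before the start, motifs found in 32.7% and 6.02% of windows. All distances are from the RefSeq starts. Of the windows shown, those of Ass1 and Cyp2f2 contain the gene starts of the GENCODE M21 annotation (31470207 and 27119909). Otc (GC 43.6%, 1 CpG) and Cyp2f2 (GC 51.6%, 0 CpG) held none of the 7 motifs in these windows, and the median over all windows was a GC content of 52.4% and 6 CpG. The windows of Nags (GC 55.6%, 2 GC boxes) and of both Slc25a15 start sites (GC 80.4% and 57.6%, with 5 and 2 GC boxes, of which 2 overlapped, and an E-box 77 bases before the first start) are not printed. The cAMP response element, the HNF4A direct repeat and the glucocorticoid response element core, present in 1.55%, 0.338% and 16.1% of all windows, matched in none of the 7 member windows. The matches are descriptions of these letters and were not tested against the expression differences.

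Gls2, Nags and Cps1 act at the entry of ammonia into the cycle. Gls2, the liver-type glutaminase that frees ammonia from glutamine in periportal mitochondria (chr10:128194457-128210004, plus strand, 18 exons), ranged from 4126 to 6194 normalized counts in vehicle livers (median 4996), from 3618 to 5829 in pair-fed livers (median 4665) and from 6354 to 8488 in GDF15 livers (median 7928). Every GDF15 liver was above every other liver. The GDF15 level was 1.51-fold that of vehicle (95% interval 1.28 to 1.79, DESeq2 adjusted p = 2.2e-05) and 1.67-fold that of pair-fed (1.41 to 1.98, adjusted p = 1.6e-07).

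Nags makes N-acetylglutamate, the obligate activator of the Cps1 enzyme (chr11:102145513-102149477, plus strand, 7 exons). It had the lowest counts of the 10. Its normalized counts were 1178 to 1409 in vehicle livers (median 1238), 1168 to 1420.4 in pair-fed livers (median 1286) and 1615 to 1889 in GDF15 livers (median 1776). The groups of GDF15 and other livers did not overlap, and the fold was 1.40 against vehicle (1.29 to 1.51, adjusted p = 1.4e-14) and 1.37 against pair-fed (1.27 to 1.48, adjusted p = 5.1e-13).

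Cps1 encodes carbamoyl-phosphate synthetase, which fixes ammonia in the mitochondrial matrix (chr1:67123026-67231259, plus strand, 38 exons). Vehicle livers ranged from 24590.1 to 47439 normalized counts with a median of 29316, and pair-fed livers from 25218 to 45088 with a median of 31714. GDF15 livers ranged from 56422 to 78355 with a median of 69871, so that the lowest GDF15 liver exceeded the highest of the 12 others. The mean was 32641 ± 8292 in vehicle, 32909 ± 6960 in pair-fed and 67888 ± 8440 in GDF15 livers (SD, n = 6 each). This was the largest fold among the members in both comparisons, 2.08 against vehicle (1.69 to 2.56, adjusted p = 3.2e-10) and 2.06 against pair-fed (1.68 to 2.54, adjusted p = 7.0e-10).

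Otc, which joins carbamoyl phosphate to ornithine in the mitochondria, rose least of the 9 called members (chrX:10252305-10321024, plus strand, 10 exons). Its normalized counts were 6045 to 8531 in vehicle livers (median 6707), 6127 to 8226.5 in pair-fed livers (median 6418) and 6833 to 9316 in GDF15 livers (median 8684). The groups overlapped, with 4 of 6 GDF15 livers above all vehicle livers and 5 of 6 above all pair-fed livers. Otc was 1.20-fold higher against vehicle (1.04 to 1.39, adjusted p = 0.043) and 1.24-fold higher against pair-fed (1.07 to 1.43, adjusted p = 0.019). The call against vehicle was lost with edgeR's quasi-likelihood test (adjusted p = 0.061) and, in DESeq2, without any 1 of 10 of the 18 livers. In replicates 4 to 6 alone Otc was called in neither comparison (adjusted p = 0.57 against vehicle and 0.42 against pair-fed), nor was it with total counts as size factors (0.46 and 0.25), and with libraries scaled to hepatocyte markers its log2 fold change was -0.08 in both.

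Slc25a15 encodes the carrier that exchanges ornithine and citrulline across the inner mitochondrial membrane (chr8:22375551-22398597, minus strand, 7 exons). Normalized counts ran from 4086 to 6290 in vehicle (median 4634), from 3822 to 5663 in pair-fed (median 5029.7) and from 4651 to 8027 in GDF15 livers (median 6619). As for Otc, the groups overlapped, with 4 of 6 GDF15 livers above all vehicle and 5 of 6 above all pair-fed livers. The fold was 1.34 against vehicle (1.13 to 1.60, adjusted p = 0.0054) and 1.37 against pair-fed (1.15 to 1.63, adjusted p = 0.0032).

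The 3 cytosolic enzymes were higher in every GDF15 liver than in any other liver. Ass1 joins citrulline to aspartate, which brings in the other nitrogen of urea (chr2:31470207-31520672, plus strand, 16 exons). It had the highest counts of the set, 43248 to 66671 in vehicle (median 48686), 37607 to 53478 in pair-fed (median 47759) and 70957 to 96285 in GDF15 livers (median 74682). Its fold was 1.51 against vehicle (1.28 to 1.77, adjusted p = 7.8e-06) and 1.68 against pair-fed (1.43 to 1.97, adjusted p = 1.2e-08).

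Asl splits argininosuccinate into arginine and fumarate (chr5:130011258-130029247, minus strand, 16 exons). Its normalized counts were 5463 to 8441 in vehicle (median 6722), 5170.2 to 9417 in pair-fed (median 6776) and 9685 to 13860.0 in GDF15 livers (median 10615). The lowest GDF15 liver and the highest pair-fed liver were close, although they did not cross. The fold was 1.61 against vehicle (1.33 to 1.93, adjusted p = 9.2e-06) and 1.60 against pair-fed (1.33 to 1.92, adjusted p = 1.7e-05).

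Arg1, the liver arginase that releases urea (chr10:24915221-24927484, minus strand, 8 exons), held 16523 to 23659 normalized counts in vehicle (median 18509.7), 15607 to 20804 in pair-fed (median 18086) and 24077 to 27837 in GDF15 livers (median 25666). GDF15 livers again stood above all others, by a small margin over the highest vehicle liver. The fold was 1.33 against vehicle (1.18 to 1.498, adjusted p = 2.9e-05) and 1.41 against pair-fed (1.25 to 1.59, adjusted p = 4.5e-07).

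Hal encodes histidine ammonia-lyase, which releases ammonia directly from histidine (chr10:93488768-93519304, plus strand, 20 exons). Vehicle livers held 2445 to 4592 normalized counts (median 3432), pair-fed livers 2643 to 4835 (median 3271) and GDF15 livers 5895 to 7807 (median 7015). No GDF15 liver overlapped the other groups. The fold was 2.02 against vehicle (1.62 to 2.53, adjusted p = 2.0e-08) and 1.97 against pair-fed (1.58 to 2.46, adjusted p = 1.0e-07), next to Cps1 in both. The other enzymes of this route showed smaller differences. Amdhd1 was 1.26-fold and 1.32-fold and Uroc1 1.19-fold and 1.19-fold higher against vehicle and pair-fed, all 4 differences called, although Uroc1 under both comparisons and Amdhd1 against vehicle turned lower when libraries were scaled to hepatocyte markers. That scaling moves the median log2 fold change of all genes to -0.36 against vehicle and -0.40 against pair-fed, so that for any gene a rise smaller than this shift turns negative. Ftcd, the last step, had log2 fold changes of 0.13 and 0.08 (adjusted p = 0.16 and 0.43), so that 2 of 3 genes of the route were called in each comparison, beside 34.5% and 28.5% called higher among genes whose mean normalized count reached 1000.

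Cyp2f2 (chr7:27119909-27133660, plus strand, 10 exons) had no called difference. Normalized counts were 10476 to 18304 in vehicle (median 14326), 11896 to 20265 in pair-fed (median 19390.3) and 12746 to 18827 in GDF15 livers (median 16785). The 3 groups overlapped, although 4 of 6 pair-fed livers lay above all vehicle and all GDF15 livers. The GDF15 level was 1.12-fold that of vehicle (0.923 to 1.37, adjusted p = 0.39) and 0.918-fold that of pair-fed (0.754 to 1.12, adjusted p = 0.57), intervals that leave out a doubling.

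**Figure D2:**
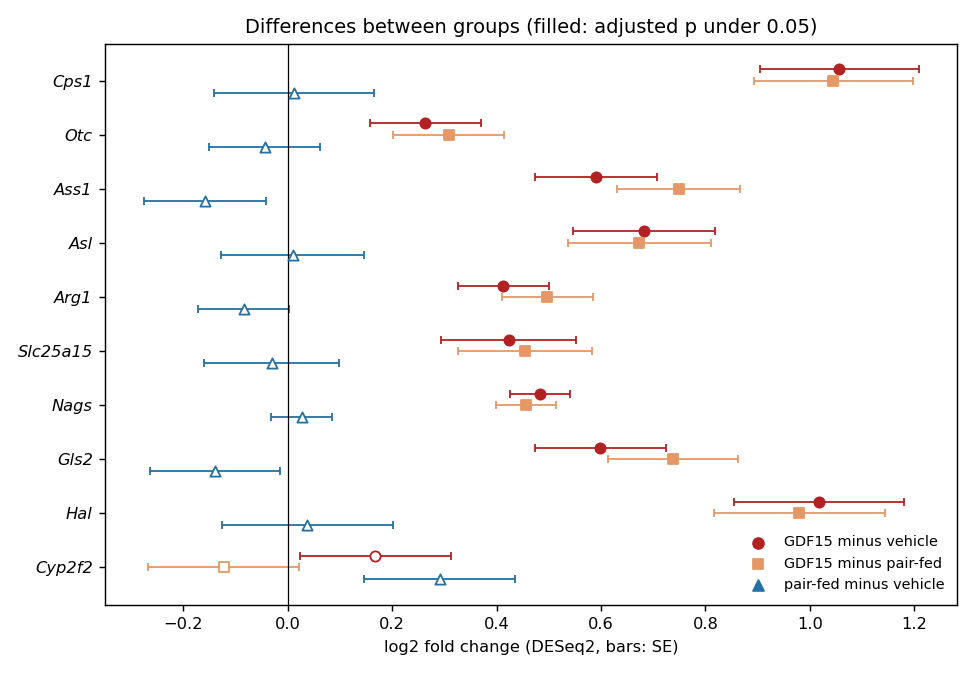
Log2 fold change (horizontal axis, DESeq2, bars are the SE) of the 10 genes for GDF15 minus vehicle, GDF15 minus pair-fed and pair-fed minus vehicle, filled where the adjusted p is under 0.05. In both GDF15 comparisons 9 genes are filled and to the right of 0, and none of the 10 is filled for pair-fed minus vehicle.

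Pair-fed livers were compared with vehicle livers to ask what the smaller ration itself changed. None of the 10 members was called, and none of the 16242 genes tested was (0%). At an unadjusted p under 0.05 there was 1 member, Cyp2f2, beside 4.42% of all genes, and edgeR also called 0 members. The log2 fold changes of the members ran from -0.16 (Ass1) to 0.29 (Cyp2f2, 4 of 6 pair-fed livers above all vehicle livers, unadjusted p = 0.045, adjusted p = 1.0), and the median was -0.01. For Cps1 the fold was 1.01 (0.820 to 1.24), for Hal 1.03 (0.822 to 1.28), for Nags 1.02 (0.941 to 1.10) and for Otc 0.970 (0.838 to 1.12). No member lay higher in all pair-fed than in all vehicle livers, which 0.111% of all genes did. Differences within those intervals could not be detected with 6 livers a group.

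Levels were set side by side between genes as counts scaled to a common library total and divided by transcript length (CPM per kb, from the transcript lengths of GENCODE M21). In vehicle livers the order ran from Ass1 (1550 ± 217 CPM per kb, SD, n = 6) through Arg1 (662 ± 62.7), Cyp2f2 (392 ± 64.1), Cps1 (297 ± 64.9), Otc (155 ± 17.9), Asl (144 ± 16.2), Gls2 (99.6 ± 13.1), Slc25a15 (72.7 ± 9.31) and Hal (32.5 ± 6.50) to Nags (31.7 ± 1.28). The neighbours Cyp2f2 and Cps1, Otc and Asl, Gls2 and Slc25a15, and Hal and Nags overlapped over the 6 livers, whereas the other neighbours did not. In GDF15 livers Cps1 stood at 550 ± 60.2 CPM per kb, with its lowest liver (471) above the highest for Cyp2f2 (438, mean 394 ± 54.1). Asl (206 ± 27.8, lowest 184) was likewise above Otc (166 ± 20.8, highest 181), and Hal (59.1 ± 7.46, lowest 47.6) above Nags (39.3 ± 2.05, highest 41.6). Gls2 (135 ± 18.03, lowest 106) stood above Slc25a15 (86.6 ± 13.6, highest 100.4). The ranges of all 4 of these pairs overlapped in vehicle and in pair-fed livers. Within single livers, Cyp2f2 was nevertheless above Cps1 in every vehicle and every pair-fed liver (lowest ratios 1.06 and 1.006).

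The members did not rise by a common factor. The ratio of Cps1 to Otc, per length, was 1.91 ± 0.252 in vehicle, 2.00 ± 0.320 in pair-fed and 3.37 ± 0.619 in GDF15 livers, where the lowest (2.61) was above the highest other liver (2.43). Against glutamine synthetase (Glul), the pericentral enzyme that captures ammonia, Cps1 stood at 0.447 ± 0.110, 0.428 ± 0.0928 and 0.876 ± 0.123 in the same order. Ratios within a library do not depend on how libraries are scaled. Hal over Uroc1 was 0.217 ± 0.0316, 0.222 ± 0.0424 and 0.373 ± 0.0359, and the 6 GDF15 livers lay above the 12 others. The ratio of Cyp2f2 to Cps1 moved the other way, 1.35 ± 0.224, 1.67 ± 0.510 and 0.723 ± 0.131, with the GDF15 livers below all others, while Arg1 over Ass1 (0.430 ± 0.0338, 0.452 ± 0.0390 and 0.380 ± 0.0279) overlapped between groups. As a share of all counts, the 7 genes of the cycle proper (its 5 enzymes with Slc25a15 and Nags) took 0.627% ± 0.0902 in vehicle, 0.595% ± 0.0819 in pair-fed and 0.900% ± 0.0825 in GDF15 livers.

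The 21 other genes of ammonia handling examined, among them transporters, transaminases and the enzymes next to the cycle, moved in both directions. Against vehicle 8 were higher and 3 lower, and against pair-fed 8 were higher and 2 lower, beside called shares in either direction of 30.1% and 24% of all genes tested. Among genes whose mean normalized count reached 1000, 34.5% and 28.5% were called higher and 12.1% and 11.7% lower. The median log2 fold change of the list was 0.17 and 0.15. The 8 that rose in both were Got1, Slc38a2, Slc38a3, Slc38a4, Slc7a2, Slc1a2, Car5a and Glud1, although Glud1 in both comparisons and Car5a against pair-fed turned lower when libraries were scaled to hepatocyte markers. The 2 that fell in both were Rhbg and Sirt5, and Gpt2 fell against vehicle alone (log2 fold change -0.30, adjusted p = 0.0046, and -0.19 with adjusted p = 0.090 against pair-fed).

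Got1, the cytosolic aspartate aminotransferase, had the largest rise of these genes. It was 2.26-fold higher against vehicle (1.67 to 3.05) and 2.26-fold against pair-fed (1.67 to 3.04), with all 6 GDF15 livers above the others. Got2, also on the list, was not called, with log2 fold changes of 0.04 and 0.06 (DESeq2 adjusted p = 0.61 and 0.44). Slc38a2 and Slc38a4, carriers of neutral amino acids, were 1.79-fold and 1.29-fold higher against vehicle and 1.69-fold and 1.37-fold higher against pair-fed. Slc38a3, a glutamine carrier, was 1.56-fold and 1.42-fold higher, and Slc7a2, a carrier of arginine and ornithine, 1.60-fold and 1.51-fold. These carriers bring substrates of the cycle into hepatocytes. Car5a, the mitochondrial carbonic anhydrase that supplies bicarbonate to the Cps1 step, was 1.42-fold and 1.28-fold higher, and Glud1, glutamate dehydrogenase, 1.23-fold and 1.24-fold.

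The call of Car5a against pair-fed (adjusted p = 0.033) was lost without any 1 of 6 of the 18 livers. Among the genes that fell, Rhbg, an ammonium transporter of pericentral hepatocytes, was 0.652-fold and 0.714-fold the level of vehicle and pair-fed, and Sirt5, a mitochondrial deacylase with Cps1 among its substrates, 0.851-fold and 0.849-fold. Glul was not called, with log2 fold changes of 0.09 and 0.01 (adjusted p = 0.23 and 0.90). With libraries scaled to hepatocyte markers it was called lower (-0.27 and -0.39, adjusted p = 0.00018 and 2.1e-08), and with total counts as size factors it was called lower against pair-fed (-0.16, adjusted p = 0.018) and not against vehicle (-0.08, adjusted p = 0.27). Neither ornithine aminotransferase (Oat, 0.18 and 0.13, adjusted p = 0.38 and 0.57) nor the mitochondrial aspartate carrier Slc25a13 (0.26 and 0.15, adjusted p = 0.0504 and 0.333) was called. Arg2, Slc25a2 and Slc38a5 were at mean normalized counts under 5 in every group, so that differences in them could not be detected at this depth.

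Other zonation markers did not follow the members as a block. Of 13 further periportal genes, 6 were higher and 4 lower against vehicle, and 7 higher and 4 lower against pair-fed, where 30.1% and 24% of all genes were called in either direction. The 6 higher in both were Sds, Pck1, Tat, Ctsc, Pigr and Igf1, and Sdsl was higher against pair-fed alone. Sds, which deaminates serine to pyruvate and ammonia, was up by 1.16 and 1.14 on the log2 scale, and Tat, tyrosine aminotransferase, by 1.40 and 1.30, though its groups overlapped. The 4 lower in both were Apoa4 (log2 fold change -1.59 and -1.47), Hsd17b13 (-0.65 and -0.68), Cdh1 and Aldh1b1. Of 15 pericentral genes, 7 were higher and 2 lower in each comparison, beside the same shares of all genes. The 7 were Cyp1a2, Cyp2e1, Rgn, Gulo, Lgr5, Tbx3 and Slc1a2, with Gulo turning lower under scaling to hepatocyte markers, and the 2 were Rhbg and Cldn2. Cyp1a2, a pericentral cytochrome P450, was up by 1.15 and 0.90 on the log2 scale. Medians were 0.40 and 0.21 for these 13 periportal and 0.36 and 0.22 for the pericentral genes. Beside the calls of both lists, 34.5% and 28.5% of genes whose mean normalized count reached 1000 were called higher and 12.1% and 11.7% lower.

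**Figure D3:**
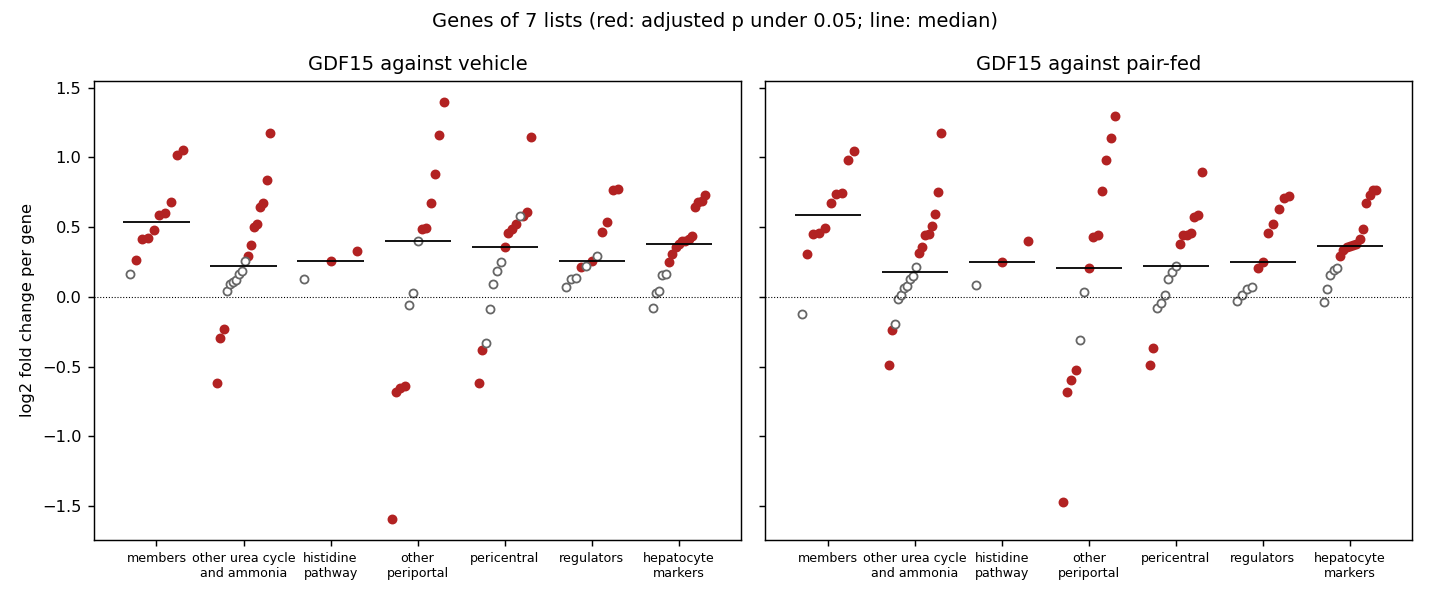
Log2 fold change of each gene (vertical axis) of 7 lists against vehicle and against pair-fed, for genes whose mean normalized count reached 10, in red where the adjusted p is under 0.05 and with the median as a line. Of the 10 members 9 are red and above 0, whereas called genes of the other ammonia, periportal and pericentral lists lie on both sides of 0.

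Transcription factors and receptors known to act on urea cycle genes were listed as well. Of 11, 6 were higher against vehicle and 7 against pair-fed, and none was lower, beside 14.3% and 11.8% called higher among all genes and 34.5% and 28.5% among genes whose mean normalized count reached 1000. Hnf4a, the nuclear receptor that maintains hepatocyte gene expression, was up by 0.54 ± 0.064 and 0.52 ± 0.064 (log2, SE), with all 6 GDF15 livers above each group. Klf15 and Ppargc1a, which respond to fasting, were up by 0.77 and 0.71 and by 0.77 and 0.63, and Cebpb by 0.47 and 0.73, with groups that overlapped. With 1 liver left out, the lowest value was 0.23 for Cebpb against vehicle and 0.30 for Ppargc1a against pair-fed. For Klf15 it was 0.62 against vehicle and 0.56 against pair-fed. In replicates 1 to 3 alone Ppargc1a was -0.037 against pair-fed. The glucagon receptor Gcgr (0.26 and 0.25) and the glucocorticoid receptor Nr3c1 (0.21 and 0.21) were higher too, and both turned lower under scaling to hepatocyte markers, by which the median of all genes moved further than either had risen. Foxo1 was called against pair-fed alone (0.46, adjusted p = 0.0065, and 0.30 with adjusted p = 0.088 against vehicle). With total counts as size factors, 3 of the 11 remained called in each comparison. The list was short and its link to the 10 members was not tested.

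Across the 18 livers the members other than Cyp2f2 varied together. The 36 pairs among these 9 had Pearson correlations of 0.538 to 0.966 on the variance-stabilized scale (median 0.863), which includes the difference between groups. After the mean of its group was subtracted from each liver, the same pairs ranged from 0.115 to 0.918 (median 0.575), highest between Asl and Arg1. The 9 pairs with Cyp2f2 had a median of 0.176 over the 18 livers and 0.378 within groups, where Cyp2f2 was closest to Otc (0.71) and Hal (0.65). All genes of a liver share 1 library, its depth and its scaling, and the correlations are given as descriptions.

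**Figure D4:**
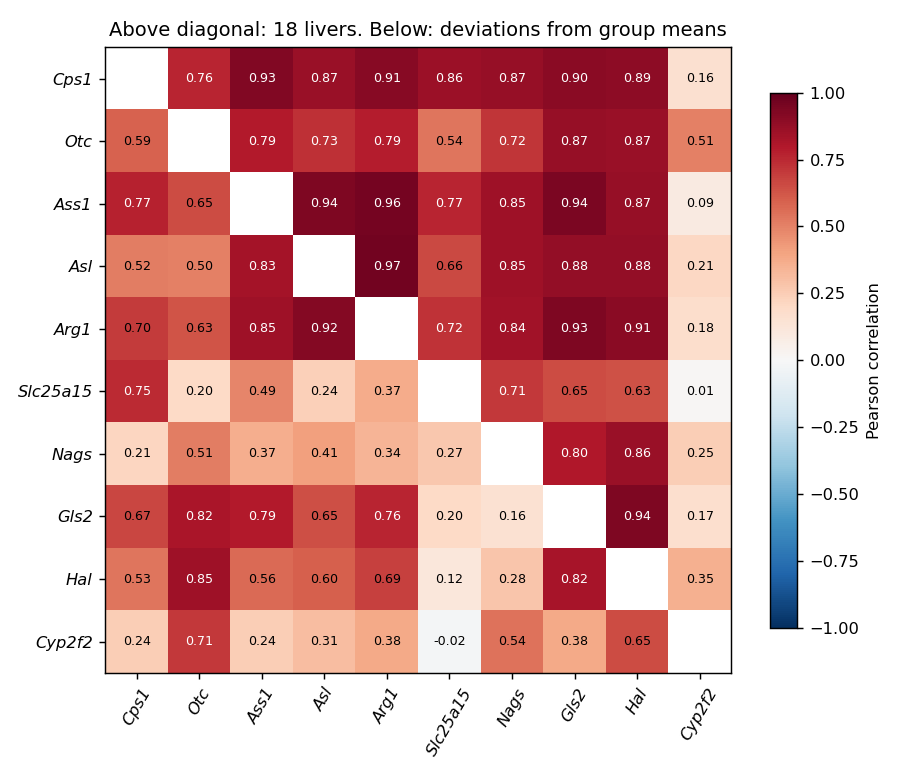
Pearson correlation (colour scale from -1 to 1) between the 10 genes on the variance-stabilized scale, above the diagonal over 18 livers and below it over deviations from group means. Above the diagonal the column of Cyp2f2 is paler than the rest, and the block of Ass1, Asl and Arg1 stays dark below the diagonal (0.83 to 0.92).

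The genes most like each member over the 18 livers were sought among 9707 genes whose mean normalized count reached 100. Cps1 was followed most closely by Ceacam1 (r = 0.954), Sdc2 and Tmem86b, and Hal by Pigr (0.967) and Pecr. For Asl they included Etnk2 (0.972) and Upp2, for Arg1 Dpyd (0.957), Gnmt and Rnf169, and for Ass1 Hpd (0.941), Sfxn2 and Cyp17a1. Hpd is an enzyme of tyrosine breakdown. Nags ran with C8g (0.968), Cyp27a1 and Ddi2, Gls2 with Ces1b (0.964), Agxt and Tmem25, Otc with Plpbp (0.918), Hibadh and Aldh2, and Slc25a15 with Hgd (0.938), Acmsd and Elk1. These correlations include the difference between groups. After group means were subtracted they were lower, from 0.60 (Nags with Cyp27a1) to 0.95 (Asl with Etnk2), and 0.76 for Cps1 with Ceacam1.

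Markers of hepatocytes and of other liver cells also moved with the groups. Of 17 secreted hepatocyte products such as albumin, 12 were higher and none lower in each GDF15 comparison. Among all genes whose mean normalized count reached 1000, 34.5% were called higher against vehicle and 28.5% against pair-fed. The summed share of counts of the 17 was 13.0% to 14.0% in vehicle, 11.8% to 14.7% in pair-fed and 14.4% to 16.8% in GDF15 livers. Some of the 17 had a top GDF15 liver far above the group median in normalized counts, as Hpx (182803, median 76680) and Fga (165347, median 99158). Others such as Alb did not (1804810, median 1607280). Of 6 stellate cell and collagen genes 6 were lower against vehicle and 5 against pair-fed, with a summed level of 195 to 459 CPM in vehicle, 162 to 352 in pair-fed and 69.1 to 110 in GDF15 livers. Of 7 macrophage genes 5 and 4 were lower and none was higher (109 to 225, 109 to 192 and 69.6 to 150 CPM). Timd4 and Clec4f were among those not called, with mean normalized counts of 54.5 and 1190 in GDF15 livers. Their means were 26.6 and 1072 in vehicle livers and 37.3 and 1198 in pair-fed livers. Of 5 cholangiocyte genes 5 and 1 were lower (112 to 466, 105 to 320 and 45.2 to 89.6 CPM). Of 5 endothelial genes 1 was higher and 1 lower against vehicle and 1 lower against pair-fed (122 to 172, 132 to 177 and 80.7 to 157 CPM). Over all genes tested, 15.8% were called lower against vehicle and 12.2% against pair-fed. None of these markers was at 0 in a whole group. The part of cell composition in the rise of the members was not tested.

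Libraries were therefore also scaled to the 17 hepatocyte products, which left 297 genes higher and 8955 lower against vehicle, and 189 higher and 9691 lower against pair-fed, in place of 2323 and 2562, and 1911 and 1983. Cps1 and Hal remained higher by 0.71 and 0.68 (log2) against vehicle and by 0.64 and 0.60 against pair-fed, and Asl by 0.33 and 0.29. Ass1 and Gls2 were called against pair-fed (0.35 and 0.35) and not against vehicle (0.24 and 0.26, adjusted p = 0.063 and 0.068). Nags (0.12 and 0.06), Arg1 (0.06 and 0.10) and Slc25a15 (0.06 and 0.04) were no longer called, Otc turned to -0.08 in both, and Cyp2f2 was lower against pair-fed by -0.51 (adjusted p = 0.00048). Relative to the shifted median of all genes, Otc stood 0.28 and 0.32 higher against vehicle and pair-fed. On the same footing Nags stood 0.49 and 0.46, Arg1 0.42 and 0.51 and Slc25a15 0.43 and 0.44 higher, and Cyp2f2 stood at 0.19 and -0.11. With total counts as size factors the median of all genes moved to -0.18 and -0.17, the split of called genes to 722 higher and 4946 lower against vehicle and 626 and 4439 against pair-fed, and 7 of the 10 members were called higher in each comparison, Otc (0.10 and 0.15) and Slc25a15 (0.25 and 0.28) dropping out.

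**Figure D5:**
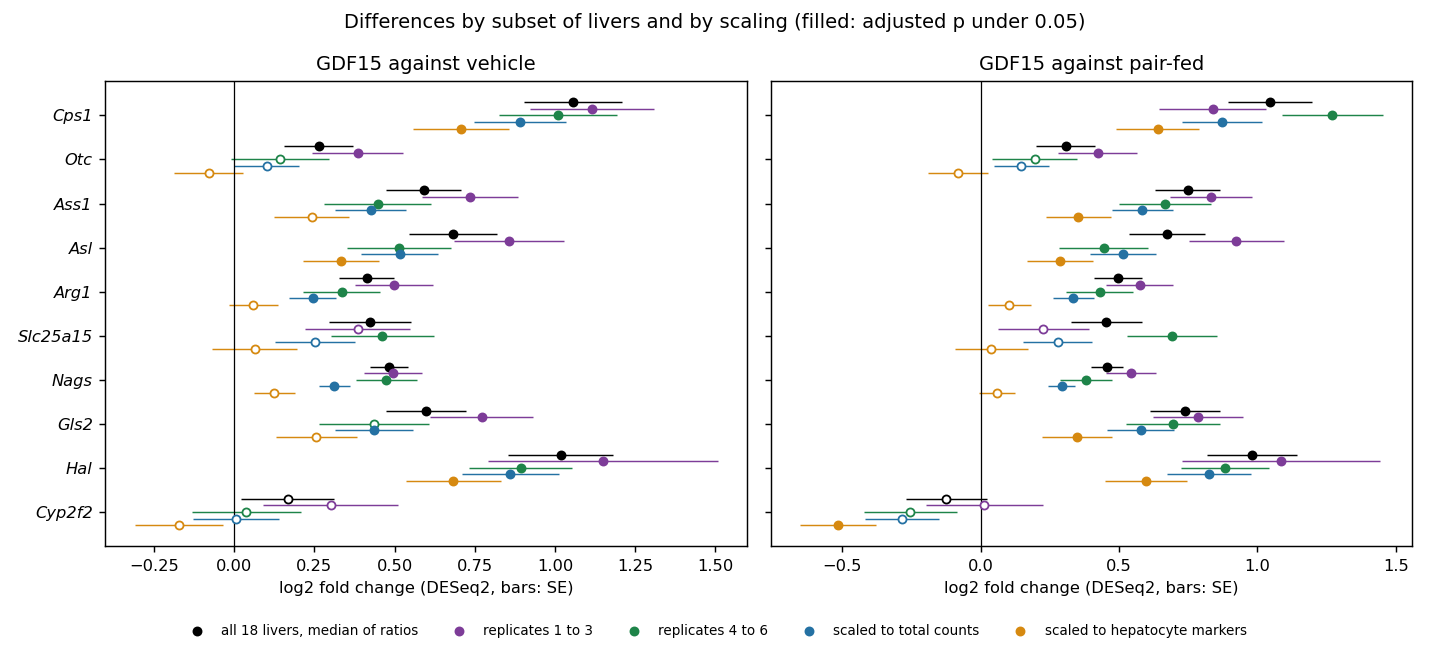
Log2 fold change (horizontal axis, DESeq2, bars are the SE) of the 10 genes in both GDF15 comparisons over all 18 livers, in replicates 1 to 3 or 4 to 6 alone, and with libraries scaled to total counts or to hepatocyte markers, filled where the adjusted p is under 0.05. Cps1, Hal and Asl stay filled throughout, and Otc and Slc25a15 are open in 3 of the 5 settings in both comparisons.

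Library size was uneven within groups by replicate number, with 17180057 to 17926397 counts in pair-fed replicates 1 to 3 and 25047723 to 35301853 in replicates 4 to 6, and the reverse in GDF15 libraries (21050932 to 25001486 and 16508864 to 19108435). The labels name no batch. The differences were therefore taken within each set of 3 a group too. Against vehicle, Cps1 was higher by 1.11 and 1.01 (log2) in replicates 1 to 3 and 4 to 6, Hal by 1.15 and 0.89, Asl by 0.86 and 0.51, Ass1 by 0.73 and 0.45, Nags by 0.50 and 0.47 and Arg1 by 0.50 and 0.34, all called. Gls2 was called in the earlier numbers alone (0.77, and 0.44 with adjusted p = 0.055), Otc likewise (0.38 and 0.14), and Slc25a15 in the later alone (0.39 with adjusted p = 0.074, and 0.46). Against pair-fed, Cps1 was higher by 0.84 and 1.27 and Hal by 1.09 and 0.88, and the members not called were Slc25a15 (0.23) in replicates 1 to 3 and Otc (0.20) in replicates 4 to 6, with Cyp2f2 in neither (0.01 and -0.25).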

How the data were processed

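Liver RNA of 18 mice was sequenced from strand-specific libraries. Per the submitters' processing notes the authors used Trim Galore, Salmon and DESeq2 with build mm10 (versions not given in the sources used here) and deposited their estimated counts as whole numbers in 1 row for each gene symbol. Salmon divides reads shared between similar transcripts. Row totals in the table were at least 5, and 0 columns lacked a sample. Groups and replicate numbers came from the sample titles.

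Counts were fitted here with DESeq2 1.42.0 (R 4.3.3), the tool named in the methods of the study, with group as the only factor, all 18 samples, Wald test and independent filtering. The fold threshold that those methods add was kept as an alternative. The edgeR 4.0.16 quasi-likelihood test was an alternative. The procedure was tested on simulated data. No 2 libraries of a group agreed within counting noise, and p-values measure the spread between mice. Total counts were 16508864 to 35301853, so that 3 counts equal 0.0850 to 0.182 CPM, and this floor covers counting error only.

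The 10 members and all gene lists were chosen with earlier results of these data known. Named genes were the 10 members, list genes called in both GDF15 comparisons, 4 pathway genes (Glul, Glud1, Oat and Slc25a13), and the 3 genes most correlated with each called member. Some genes that these rules name are not reported here and were left out of the lists, their counts and their medians. Genes called in 1 comparison alone, Ftcd, Got2, Timd4, Clec4f and the lowly expressed genes were named after their values were seen. Positions are those of GENCODE M21 and RefSeq on GRCm38, the assembly also called mm10. Alternatives were TMM library sizes, dropping genes under 10 counts in more than 12 samples, testing without independent filtering, the 12 samples compared, hepatocyte-marker size factors, thinning to 16508864 counts, replicates 1 to 3 or 4 to 6, a replicate block and leaving out each sample. Total counts as size factors were added after the data were seen.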

Additional observations from a re-analysis of the deposited data

Results flagged for a closer look

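A single liver stood apart from the other 5 of its group for 2 of the 10 genes (by Dixon's criterion on the gap to the nearest liver). Otc in GDF15 replicate 4 had 6833 normalized counts, beside 8508 to 9316 in the other GDF15 livers, and without this liver Otc was higher against vehicle by 0.32 on the log2 scale in place of 0.26. Ass1 in GDF15 replicate 2 had 96285 normalized counts, beside 70957 to 79439.5 in the others, and its differences from vehicle and pair-fed remained called without it. Chance flags about 1 in 20 groups, which over the 42 groups examined comes to 2.1. The cause was not tested.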

How the results depend on the processing

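The count of 9 members called higher stayed at 7 to 9 in both GDF15 comparisons under edgeR, TMM library sizes, total counts as size factors, the count minimum, no independent filtering, the 12 samples compared, thinning, the replicate block and either set of replicates, and was 8 to 9 when each sample was left out. It moved to 3 (vehicle) and 6 (pair-fed, of which 5 higher and Cyp2f2 lower) with hepatocyte-marker size factors, and to 2 and 1 with the fold threshold, which left 1 of the other pathway genes in each comparison. The called pathway genes were 11 to 12 and 9 to 11 with a sample left out. For pair-fed against vehicle 0 members and 0 pathway genes were called throughout. Otc alone among the members lost its call when a sample was left out, against vehicle without GDF15 replicates 1, 2, 3, 5 or 6, Vehicle replicates 1, 2, 4 or 5, or PairFed replicate 5 (log2 fold change 0.22 to 0.32 over all 18 omissions), and against pair-fed without GDF15 replicate 2 (0.28) or PairFed replicate 2 (0.28). Of the other named genes, Tbx3 and Cebpb against vehicle and Car5a, Cyp2e1, Cdh1, Ppargc1a, Tat and Tbx3 against pair-fed lost their call without at least 1 sample, and Slc25a13 and Glul gained one against vehicle.

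Reversals against vehicle with hepatocyte-marker size factors were Otc -0.080, Cyp2f2 -0.17, Glud1 -0.075, Uroc1 -0.092, Amdhd1 -0.023, Gulo -0.00031, Nr3c1 -0.14, Gcgr -0.098, Glul -0.27, Oat -0.16 and Slc25a13 -0.086 (log2). Those against pair-fed were Otc -0.082, Glud1 -0.098, Car5a -0.030, Uroc1 -0.14, Gulo -0.022, Nr3c1 -0.19, Gcgr -0.15, Glul -0.39, Oat -0.26 and Slc25a13 -0.24. With total counts as size factors Glul was -0.080 and -0.16, and against pair-fed Oat was -0.031 and Slc25a13 -0.010. With replicates 4 to 6 Oat was -0.051 against vehicle, and against pair-fed Oat was -0.052, Cyp2e1 -0.058 and Slc25a13 -0.095. With replicates 1 to 3 Cyp2f2 was 0.013 and Ppargc1a -0.037 against pair-fed. Uncalled differences of pair-fed from vehicle changed sign for Cps1 (-0.26, replicates 4 to 6), Otc (0.0020) and Slc25a15 (0.025) with hepatocyte-marker size factors, and Asl (-0.067), Slc25a15 (0.16) and Nags (-0.049) with replicates 1 to 3. With a sample left out they ran from -0.10 to 0.15 for Cps1, -0.10 to 0.015 for Otc, -0.098 to 0.080 for Asl, -0.083 to 0.050 for Slc25a15, -0.0045 to 0.059 for Nags and -0.075 to 0.14 for Hal, and Glul against pair-fed from -0.012 to 0.056. The causes were not tested.

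With the replicate block, Cps1 was higher by 1.09 against vehicle and 1.07 against pair-fed, 9 members were called in each, and Asl for pair-fed against vehicle was -0.00034. Same-numbered samples did not deviate together in every pair of the GDF15 comparisons. Their mean correlation was -0.051 for GDF15 with vehicle, with 2 of 6 pairs above 0.1, and 0.028 for GDF15 with pair-fed, with 3 of 6. Pair-fed with vehicle had a mean of 0.21, with 4 of 6 pairs above 0.1 and the lowest at 0.030, beside a mean of -0.042 for samples of other numbers. The numbers were not taken as pairs in the main fit, and what same-numbered samples share was not tested.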
